A study of Mus musculus with 40 samples.

Results

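The amino acid transporters described here are 10 plasma membrane carriers or carrier subunits that skeletal muscle expresses, taken as the rows of the expression table whose gene symbol was Slc7a5, Slc3a2, Slc7a1, Slc7a2, Slc7a6, Slc38a1, Slc38a2, Slc38a4, Slc1a5 or Slc43a1. All 10 were among the 12573 genes of the table. They were followed in the gastrocnemius (a calf muscle that holds slow and fast fibres) of 40 female C57BL6/J mice with 1 RNA library per mouse and 8 mice per group. PBS mice were injected with saline at 8 weeks of age and taken at 12 weeks of age. The tumor-bearing mice received cells of Lewis lung carcinoma (LLC), a transplantable tumor of the same mouse strain, at 8 weeks of age. 1wk mice were taken 1 week later at 9 weeks of age and 2wk mice 2 weeks later at 10 weeks of age. Mice with a tumor mass up to 1.2 g formed the LT group and those with 2 g or more the HT group, and both were taken after 3 to 4 weeks at 11 to 12 weeks of age. All tumor-free mice were 12 weeks old, so tumor and age cannot be told apart in 1wk and 2wk muscle, and LT and HT were separated by tumor mass after the fact.

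Amino acids enter muscle fibres through carriers with different substrates and energy sources. The exchangers Slc7a5 (system L, large neutral amino acids) and Slc7a6 (system y+L, basic and neutral amino acids) reach the membrane only when bound to the glycoprotein heavy chain encoded by Slc3a2 (CD98), whereas Slc43a1 carries branched-chain amino acids and phenylalanine by facilitated diffusion without a heavy chain. Slc7a1 and Slc7a2 carry arginine, lysine and ornithine, the Slc38 members take up glutamine and other small neutral amino acids together with sodium, and Slc1a5 exchanges glutamine and other neutral amino acids. The amino acids they bring in are building blocks for protein and signals to the growth kinase mTORC1.

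The values are read counts that the authors had divided by a size factor per library. The depth estimated from the table was 15.67 to 28.66 M reads over the 1wk, 2wk and PBS libraries and 3.49 to 7.76 M reads over the LT and HT libraries, so depth and group cannot be told apart where HT or LT is set against PBS, whereas HT and LT were sequenced to a like depth. Markers of muscle fibres were measured for 14 of 14 listed genes, and their summed value was 1830000 or more in each library. Mouse C17 (1wk) stood apart by a summed value of 18 macrophage markers of 18420, against a median of 2513 in its group. Mice C48, C54 and C55 (HT) stood apart among the transporters or had low weights in the fit that weighted libraries (0.421, 0.151 and 0.1). Results for the transporters in which these mice changed a call are therefore also given without them. For lists of other genes only counts of called genes are given without C54 and C55. Whether calls of single genes in those lists rest on these mice is not shown.

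The transporters covered a wide range of levels, and the order of their medians per kilobase of transcript was the same in HT and in PBS muscle. In PBS muscle the median level per kilobase, a scale on which genes of different length can be set side by side, was 316 for Slc38a2 and 280 for Slc38a4, the pair of sodium-coupled carriers of small neutral amino acids that led the order. Slc7a2 followed with 174, Slc3a2 with 156, Slc1a5 with 121, Slc7a6 with 69.4 and Slc43a1 with 49. The remaining 3 members were far lower, with medians per kilobase of 5.94 for Slc7a5, 4.14 for Slc7a1 and 1.31 for Slc38a1. Neighbours in this order overlapped in range over the 8 PBS mice except at 3 places. These were Slc38a4 over Slc7a2, Slc43a1 over Slc7a5 and Slc7a1 over Slc38a1, where the first was higher in 8 of 8 mice. In HT muscle ranges of neighbours overlapped except for Slc3a2 over Slc1a5 and Slc43a1 over Slc7a5. There Slc38a2 was above Slc38a4 in 3 of 8 mice and Slc7a5 above Slc7a1 in 4 of 8, so the shared order is one of medians. In the table's coordinates (build mm39) Slc38a1, Slc38a2 and Slc38a4 lie close together on the minus strand of chromosome 15, between positions 96469299 and 96953838, and Slc7a2, Slc7a5 and Slc7a6 lie apart from each other on chromosome 8.

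**Figure D1:**
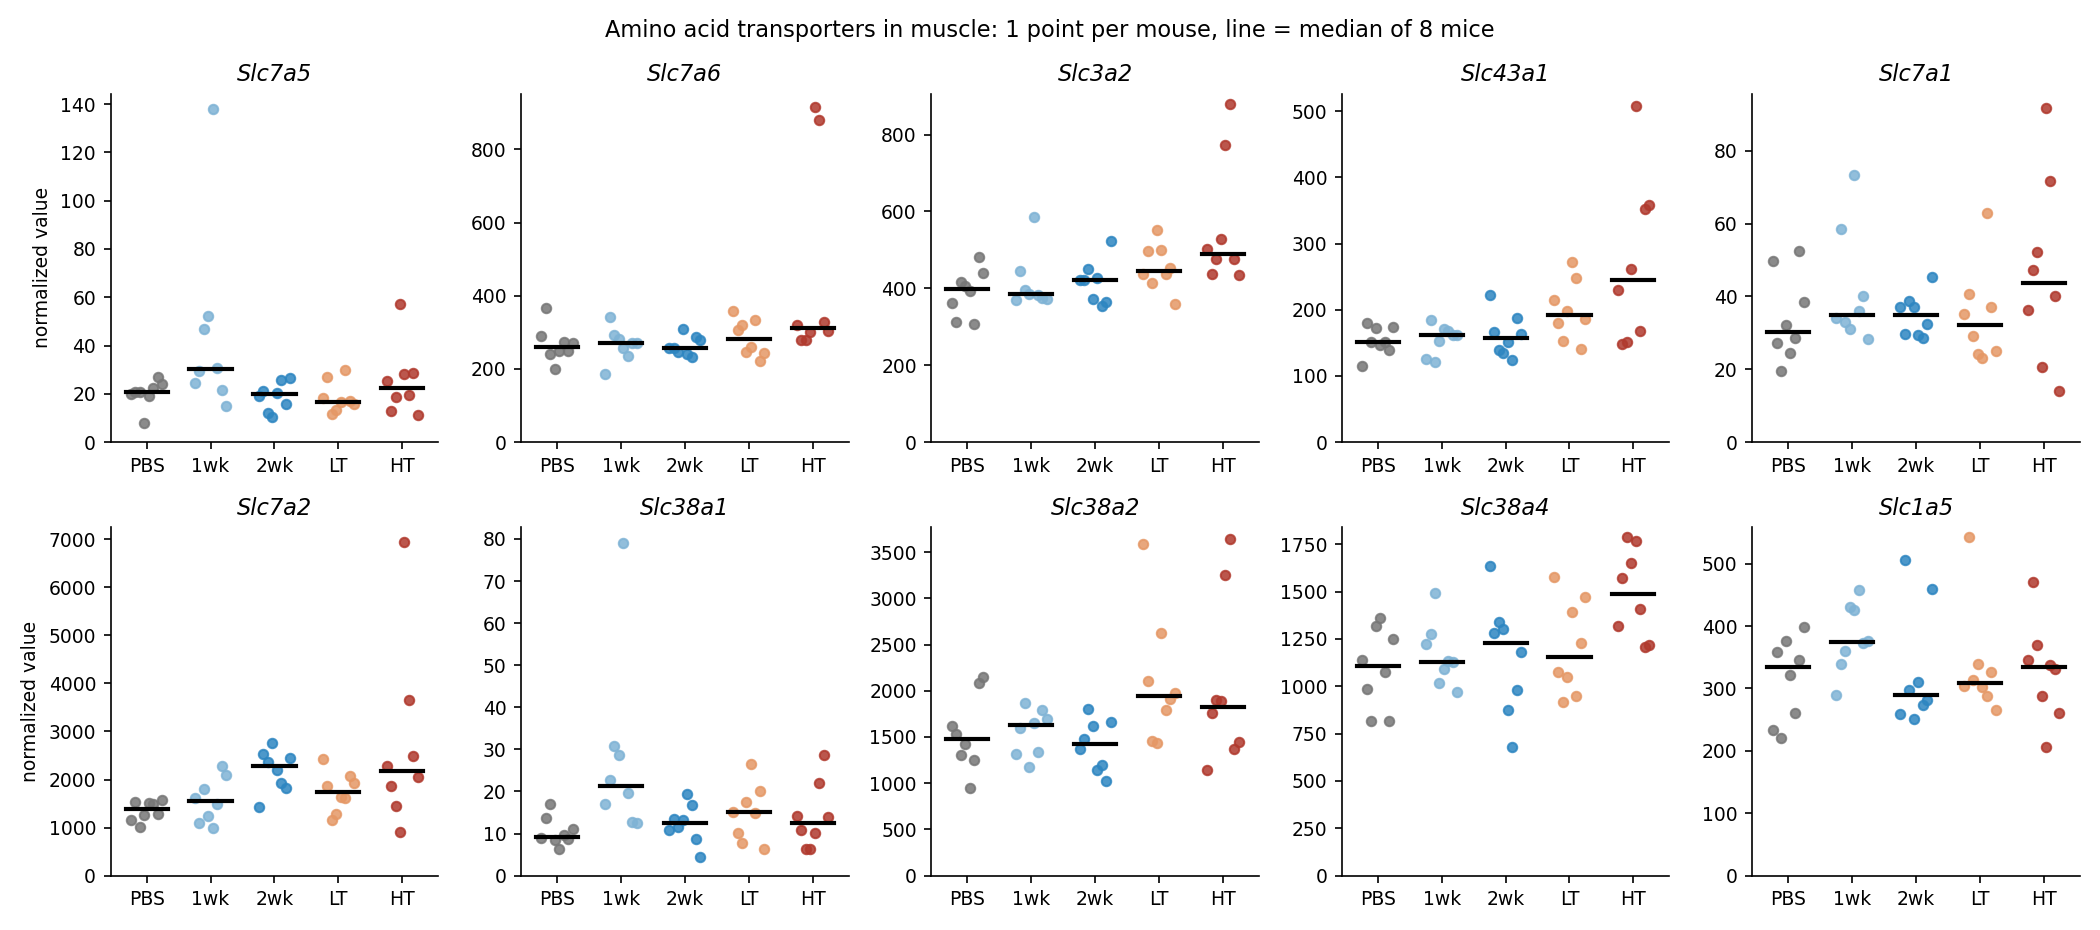
Normalized value (vertical axis, linear from 0) of each of the 10 transporters in each of 40 mice, by group along the horizontal axis, with 1 point per mouse and a line at the median of 8 mice. Slc7a6 was at 881 or more in 2 HT mice and at 366 or less in the other 38 mice, and Slc38a1 was highest in 1 1wk mouse at 79.1.

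The first question was which transporters had changed in muscle of mice with large tumors. In HT against PBS, 5 of the 10 transporters rose and 0 fell at an adjusted p under 0.05 (limma with Benjamini-Hochberg adjustment over all 12573 genes), where 16.5% of all genes were called higher and 16.5% lower. Those that rose were the heavy chain Slc3a2, its light chain Slc7a6, the branched-chain amino acid carrier Slc43a1, the cationic amino acid carrier Slc7a2 and the small neutral amino acid carrier Slc38a4. The median log2 fold change of the 10 transporters was 0.40, and that of all genes was 0. For all 10 transporters the values of HT and PBS mice overlapped, where 3.47% of all genes had no overlap. The libraries of a muscle hold all its cells, and fewer cells of a type and less RNA per cell cannot be told apart in such data.

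Slc43a1 (chr2:84669752-84693931, plus strand, mm39) had a lowest value of 148, a median of 246 and a highest value of 507 in HT muscle, against 115, 151 and 181 in PBS muscle. In 5 of 8 HT mice it was above the highest PBS mouse, and in HT mice C38, C46 and C55 it lay within the PBS range. Its log2 fold change was 0.70 (SE 0.18, 1.63-fold, adjusted p = 0.00277). It averaged 272 ± 126 in HT and 154 ± 21.6 in PBS muscle (SD, n = 8 each). Slc43a1 was also called in the fits without HT mice C54 and C55 (log2 fold change 0.63, adjusted p = 0.00749).

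Slc3a2, the CD98 heavy chain (chr19:8684246-8700734, minus strand, mm39), had a lowest value of 436, a median of 490 and a highest value of 878 in HT muscle, against 307, 399 and 481 in PBS muscle. All 8 HT mice lay above the PBS median and 4 above the highest PBS mouse, with C54 (773) and C55 (878) above the rest. The log2 fold change was 0.50 (SE 0.12, 1.41-fold, adjusted p = 0.00218). Without C54 and C55 it was 0.30 (adjusted p = 0.0375), and without C48 as well it was 0.27 and no longer called (adjusted p = 0.0855). On the opposite strand 743 exon bases of Slc3a2 are shared with Snhg1, a host gene of small nucleolar RNAs. Snhg1 had values of 283 in C54 and 453 in C55, against 43.8 to 69.9 in the other HT mice and 36.8 to 79.7 in PBS mice. Whether strand was used in counting is not stated in the sources used, so reads of these 2 genes cannot be told apart with certainty.

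Slc38a4 (SNAT4, chr15:96892704-96953838, minus strand, mm39) had no single HT mouse far above the rest. Its lowest, median and highest values were 1210, 1488 and 1786 in HT muscle, against 816, 1108 and 1360 in PBS muscle. All 8 HT mice were above the PBS median and 5 above the highest PBS mouse. The log2 fold change was 0.45 (SE 0.14, 1.37-fold, adjusted p = 0.0121), and without C54 and C55 it was 0.42 (adjusted p = 0.0447). It was not called without C48, C54 and C55 (0.38, adjusted p = 0.0955) or when libraries were weighted (0.33, adjusted p = 0.138).

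Slc7a2 (CAT2, chr8:41315404-41375108, plus strand, mm39), the main cationic amino acid carrier by level in these muscles, had the largest log2 fold change of the 10 and the widest spread. It had a lowest value of 902 (C48), a median of 2173 and a highest value of 6950 (C54) in HT muscle, against 1006, 1382 and 1579 in PBS muscle. In 6 of 8 HT mice it was above the highest PBS mouse, and in C48 it was below the lowest. The log2 fold change was 0.77 (SE 0.23, 1.70-fold, adjusted p = 0.0107). Without C54 and C55 it was 0.39 and not called (adjusted p = 0.148), and without C48 alone it was 0.96 (adjusted p = 0.00101). Without C48, C54 and C55 it was 0.58 and called (adjusted p = 0.0236).

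Slc7a6 (y+LAT2, chr8:106895486-106925347, plus strand, mm39), a light chain that exchanges basic for neutral amino acids, was set apart by the same 2 mice. C54 had 916 and C55 881, the other 6 HT mice had 279 to 328, and PBS mice had 200 to 366 with a median of 260. The HT median was 312. The log2 fold change was 0.58 (SE 0.18, 1.5-fold, adjusted p = 0.0138). Leaving out C54 alone (0.41, adjusted p = 0.0541) or C55 alone (0.42, adjusted p = 0.0532) ended the call, and without both the log2 fold change was 0.19 (adjusted p = 0.243).

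The other 5 transporters did not pass the test in HT muscle. Slc38a2 (SNAT2) had medians of 1829 in HT and 1479 in PBS muscle (log2 fold change 0.35, 95% interval -0.04 to 0.74, adjusted p = 0.16). Its 2 highest HT mice were C55 (3637) and C54 (3248), and without them the log2 fold change was 0.06. Slc1a5 (ASCT2), the glutamine exchanger, had medians of 334 in HT and 334 in PBS muscle, with an interval of -0.27 to 0.36 on the log2 scale.

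The low members were counted on few reads. In HT libraries Slc7a5 (LAT1) rested on 4 to 36 reads, Slc7a1 (CAT1) on 5 to 36 and Slc38a1 (SNAT1) on 3 to 10. Their medians in HT and PBS muscle were 22.3 and 20.9 for Slc7a5, 43.8 and 30.3 for Slc7a1 and 12.5 and 9.29 for Slc38a1. The 95% intervals of their log2 fold changes ran from -0.43 to 0.83 for Slc7a5, from -0.22 to 0.84 for Slc7a1 and from -0.36 to 0.93 for Slc38a1. These intervals rest on 1 spread shared by all groups.

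**Figure D2:**
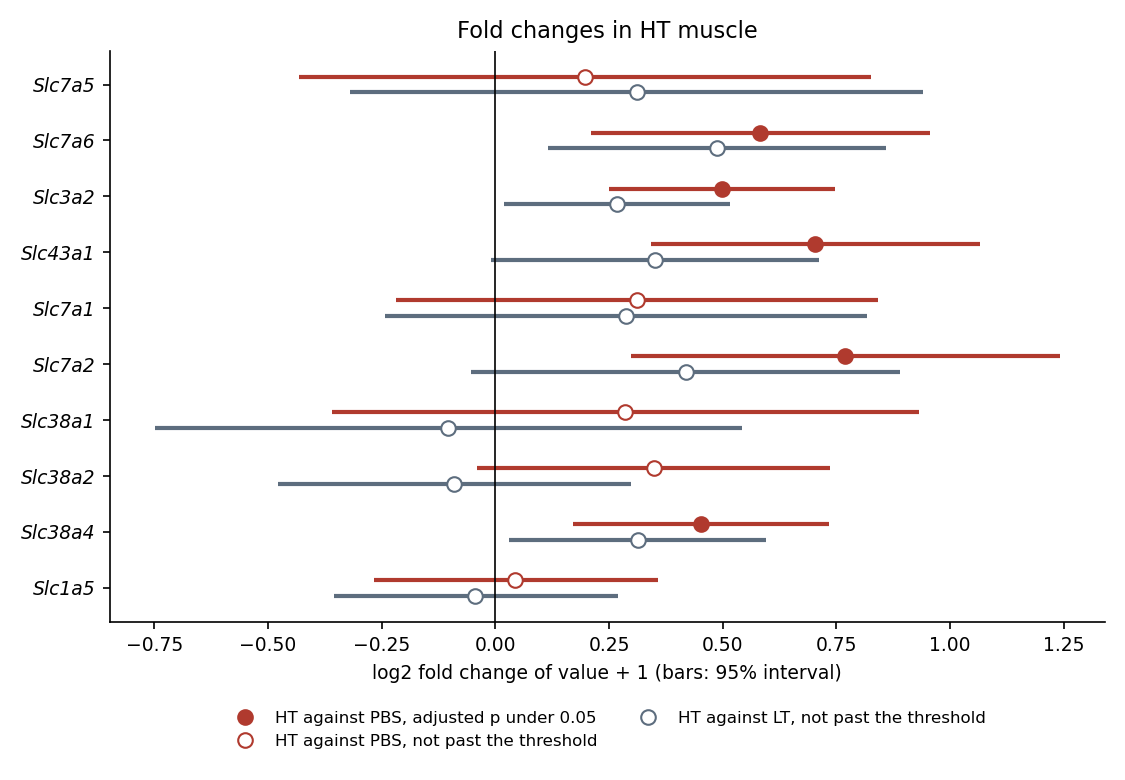
Log2 fold change of value + 1 (horizontal axis) with its 95% interval for each transporter (rows) in HT against PBS (upper marker of each row) and HT against LT (lower marker). Filled markers passed an adjusted p of 0.05, which 5 transporters did against PBS and 0 against LT.

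The promoters of members that rose are shown because all of these genes were called higher in HT against PBS. RefSeq promoter windows, 250 bases before to 50 after a start (build GRCm38.p6), matched 6 of the 10 members by symbol, among them 4 of those that rose. Capitals mark a match on either strand to the E-box CACGTG or the GC box GGGCGG, which did not overlap each other. For Slc38a4 and Slc7a6, which have several windows, the one with the outermost 5′ start is given.
Slc3a2, chr19:8713848-8714147, minus strand: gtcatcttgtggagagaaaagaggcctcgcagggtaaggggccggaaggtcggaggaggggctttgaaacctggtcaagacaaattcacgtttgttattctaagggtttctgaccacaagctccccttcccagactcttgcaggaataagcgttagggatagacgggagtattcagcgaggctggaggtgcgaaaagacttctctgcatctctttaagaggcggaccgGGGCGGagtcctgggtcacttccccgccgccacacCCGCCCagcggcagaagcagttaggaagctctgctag
Slc43a1, chr2:84840073-84840372, plus strand: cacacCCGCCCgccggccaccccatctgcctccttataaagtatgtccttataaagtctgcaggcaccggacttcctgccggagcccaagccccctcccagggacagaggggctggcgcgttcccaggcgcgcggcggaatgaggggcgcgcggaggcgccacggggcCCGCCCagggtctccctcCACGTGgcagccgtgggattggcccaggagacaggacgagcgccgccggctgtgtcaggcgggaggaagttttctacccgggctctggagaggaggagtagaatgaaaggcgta
Slc7a6, chr8:106168604-106168903, plus strand: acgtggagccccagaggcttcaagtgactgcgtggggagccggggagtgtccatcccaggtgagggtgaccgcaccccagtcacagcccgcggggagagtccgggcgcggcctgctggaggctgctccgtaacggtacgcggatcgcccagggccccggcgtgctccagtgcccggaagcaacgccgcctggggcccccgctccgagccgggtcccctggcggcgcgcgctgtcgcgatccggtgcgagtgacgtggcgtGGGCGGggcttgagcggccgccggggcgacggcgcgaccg
Slc38a4, chr15:97055907-97056206, minus strand: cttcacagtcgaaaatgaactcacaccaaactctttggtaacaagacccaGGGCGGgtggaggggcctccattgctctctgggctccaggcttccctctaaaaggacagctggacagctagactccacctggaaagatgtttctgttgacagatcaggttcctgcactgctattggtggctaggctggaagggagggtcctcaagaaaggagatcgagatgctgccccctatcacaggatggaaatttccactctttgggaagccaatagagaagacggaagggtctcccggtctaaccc

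The E-box was found in the Slc43a1 window and in 7.2% of all 32851 windows. The GC box was found in 8 of the 10 windows of members and in 35.7% of all windows. These 10 windows belong to 6 members, and the windows of Slc7a6 overlap and hold the same GC box. The 10 are therefore not independent of each other. The core of the amino acid response element, TGATGNAA, was in 4.0% of all windows and in 0 of the 10 windows of members. The forkhead site GTAAACA was in 3.6% of all windows and likewise in 0 of the 10. These are matches of letters in a window of 300 bases and give no binding.

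The next comparison, HT against LT, set groups of a like depth against each other by tumor mass. Mice were placed in either group by tumor mass and not by week, the labels used here do not give the week of each mouse, and week and tumor mass cannot be told apart. Here 0 of the 10 transporters were called by limma, where 20.4% of all genes were. At an unadjusted p under 0.05 there were 3, all higher in HT, where 35.4% of all genes passed in either direction. Slc7a6 came nearest with a median of 312 in HT and 282 in LT muscle (log2 fold change 0.49, SE 0.18, adjusted p = 0.0541). With values scaled to equal sums it was called (adjusted p = 0.0374), and leaving out C48 also gave a call (0.54, adjusted p = 0.0403), as did leaving out C37, C38, C39, C46, C60 or C62 alone. Without C54 its log2 fold change was 0.32 (adjusted p = 0.187), without C55 it was 0.32 (adjusted p = 0.184), and without both it was 0.09 (adjusted p = 0.672).

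Slc3a2 averaged 564 ± 167 in HT and 456 ± 59.7 in LT muscle (SD, n = 8 each), with a log2 fold change of 0.27 (adjusted p = 0.113). Slc38a4 was above the LT median in 8 of 8 HT mice, with medians of 1488 in HT and 1154 in LT muscle (log2 fold change 0.31, adjusted p = 0.102). Slc43a1 had medians of 246 in HT and 192 in LT muscle, and Slc7a2 medians of 2173 in HT and 1749 in LT muscle. The log2 fold changes were 0.35 for Slc43a1 (adjusted p = 0.151) and 0.42 for Slc7a2 (adjusted p = 0.194). Slc7a2 turned on single mice, with a log2 fold change of 0.61 and a call without C48 (adjusted p = 0.0416) and of 0.19 without C54 (adjusted p = 0.56). Slc38a1, Slc38a2 and Slc1a5 had log2 fold changes between -0.10 and -0.04.

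In LT against PBS 0 of the 10 transporters were called by limma, where 0.636% of all genes were, and 1 passed an unadjusted p of 0.05, where 12.3% of all genes did. This was Slc38a2, with lowest, median and highest values of 1436, 1943 and 3586 in LT muscle, against 950.5, 1479 and 2148 in PBS muscle (log2 fold change 0.44, adjusted p = 0.339). Slc43a1 was above the highest PBS mouse in 5 of 8 LT mice (log2 fold change 0.35, adjusted p = 0.422). Slc7a2 was above the highest PBS mouse in 6 of 8 LT mice (0.35, adjusted p = 0.568). LT and HT share the PBS mice as their reference, so these values are not independent of those of HT.

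The early groups addressed whether transporters had moved before tumors were large. In 1wk against PBS 0 of the 10 were called by limma, where 0.525% of all genes were, and 2 passed an unadjusted p of 0.05, where 11.6% of all genes did. Slc38a1 had lowest, median and highest values of 12.6, 21.3 and 79.1 in 1wk muscle, against 6.42, 9.29 and 16.9 in PBS muscle. All 8 1wk mice were above the PBS median and 6 above the highest PBS mouse (log2 fold change 1.14, SE 0.32, adjusted p = 0.102). Slc7a5 had 15.1, 30.2 and 138 in 1wk muscle, against 8.01, 20.9 and 26.8 in PBS muscle (log2 fold change 0.84, SE 0.31, adjusted p = 0.248).

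In both the highest 1wk mouse was C17, the mouse with the high macrophage markers. Its summed value of 6 neutrophil markers was also the highest of the 1wk mice (429, group median 57.4). Its summed value of fibre markers was the lowest of them (1830000, group median 2486000). C17 was also the highest 1wk mouse for Slc3a2 (586) and Slc7a1 (73.4) and the lowest for Slc7a2 (990). Without C17 the log2 fold changes were 0.89 for Slc38a1 (adjusted p = 0.345) and 0.57 for Slc7a5 (adjusted p = 0.712). When libraries were weighted, which gave C17 a weight of 0.264, both were called (adjusted p = 0.00508 for Slc38a1 and 0.0386 for Slc7a5). The weighted fit called 729 of all 12573 genes in this comparison, against 66 without weights. In 1wk against PBS log2 fold changes were above 0 in 18 of 18 macrophage, 20 of 20 endothelial and 14 of 15 fibroblast markers. So were those of 6 of 6 neutrophil, 9 of 12 erythroid and 3 of 14 fibre markers. In each of these lists 0 were called, where 0.525% of all genes were. The part of these cells in the transporter values of 1wk muscle was not tested.

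In 2wk against PBS 0 of the 10 were called by limma, where 0.0795% of all genes were, and 1 passed an unadjusted p of 0.05, where 4.66% of all genes did. It was Slc7a2, with lowest, median and highest values of 1426, 2279 and 2753 in 2wk muscle, against 1006, 1382 and 1579 in PBS muscle. In 7 of 8 2wk mice it was above the highest PBS mouse (log2 fold change 0.68, SE 0.23, 1.60-fold, adjusted p = 0.624). The SD was 433 over 2wk and 1893 over HT mice, against 207 over PBS mice, and all groups share 1 estimate of the spread in the fit. With only 2wk and PBS mice in the fit Slc7a2 was called (adjusted p = 0.0392), and likewise when libraries were weighted (adjusted p = 0.00429). The weighted fit called 242 of all 12573 genes in this comparison, against 10 without weights. The other 9 transporters had log2 fold changes from -0.11 to 0.17 in 2wk muscle.

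Between 2wk and 1wk muscle 0 of the 10 were called by limma, where 0.0159% of all genes were, and 3 passed an unadjusted p of 0.05, where 7.6% of all genes did. Slc7a5 (log2 fold change -0.93, adjusted p = 0.53) and Slc38a1 (-0.96, adjusted p = 0.518) were below the 1wk median in 8 of 8 2wk mice. Slc7a2 had medians of 2279 in 2wk and 1557 in 1wk muscle (log2 fold change 0.50, adjusted p = 0.628). Without C17 the log2 fold changes were -0.66 for Slc7a5 and -0.72 for Slc38a1.

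**Figure D3:**
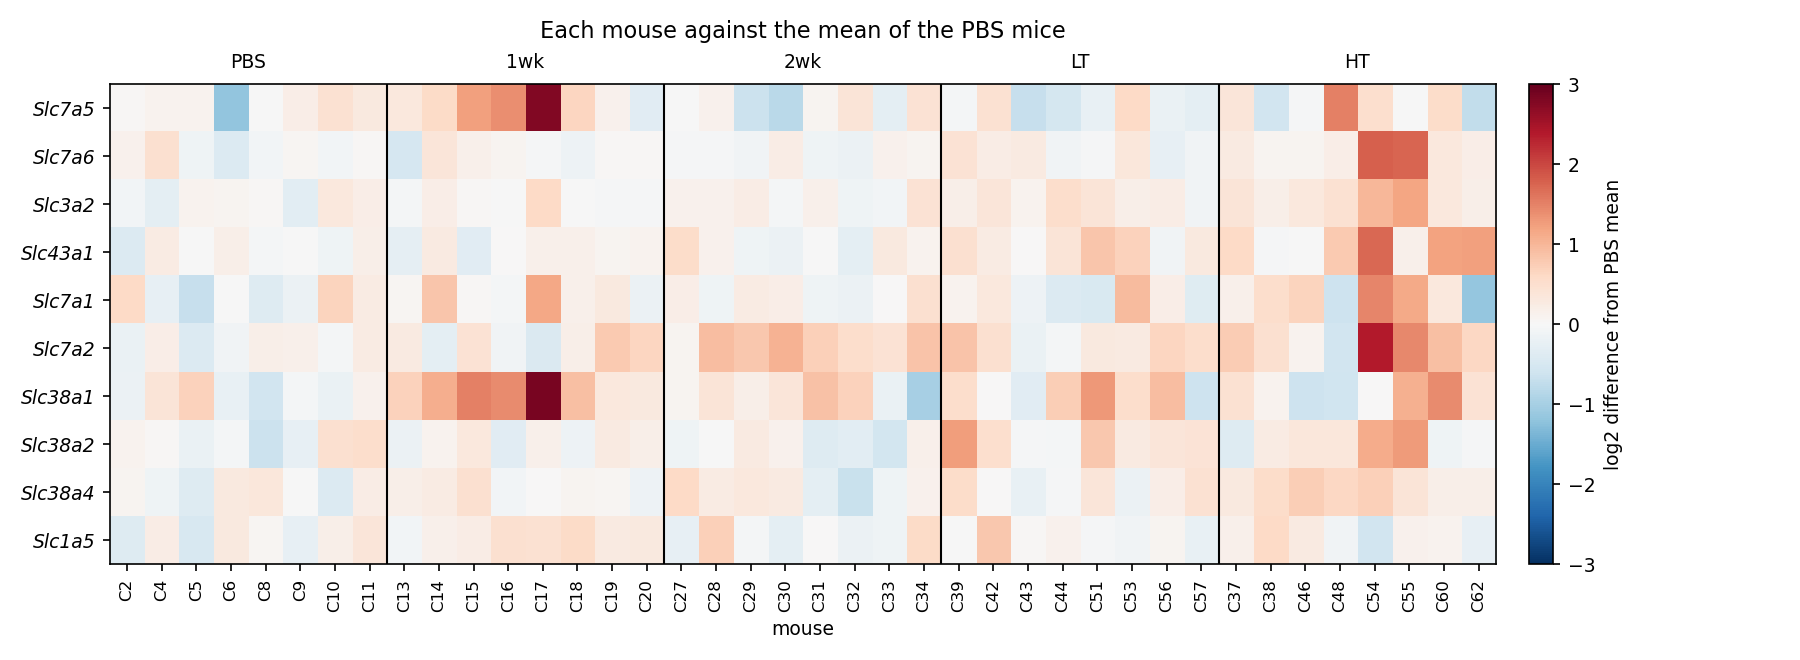
Difference of each mouse (columns, by group from PBS to HT) from the mean of the 8 PBS mice on the log2 scale (colour, red higher and blue lower) for each transporter (rows). The strongest single values belonged to C17 (1wk) for Slc7a5 at 2.77 and Slc38a1 at 2.85 and to C54 (HT) for Slc7a2 at 2.38.

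Within the HT group the transporters differed between mice more than in PBS muscle. The coefficient of variation of Slc7a2 was 69.9% in HT, against 15.3% in PBS muscle, and that of Slc7a6 was 61.4% in HT, against 18.1% in PBS. Slc38a4 varied by 15.7% in HT and 19.3% in PBS muscle. C54 and C55 were the 2 highest HT mice for 5 of the 10 transporters (Slc38a2, Slc3a2, Slc7a1, Slc7a2 and Slc7a6), whereas for Slc1a5 C54 was the lowest HT mouse at 207 and C55 was near the middle at 337. C48 was the highest HT mouse for Slc7a5 (57.2) and the lowest for Slc7a2.

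The heavy chain and its partners were then compared mouse by mouse, with group means removed, over 4 pairs in 40 mice. None of the 4 pairs passed after adjustment over the 4 (permutation test of 100000 resamples within groups, two-sided). For Slc7a6 and Slc3a2 Pearson's r was 0.49 (permutation p = 0.0276, adjusted p = 0.108) and Spearman's rho 0.24 (permutation p = 0.166, adjusted p = 0.332). The relation rested on the mice C54 and C55, without which r was -0.14 (permutation p = 0.477). For Slc7a5 and Slc3a2 r was 0.34 (permutation p = 0.0542, adjusted p = 0.108) and rho 0.30 (permutation p = 0.0706, adjusted p = 0.282), and without C17 and C48 r was 0.22.

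For Slc7a5 and the glutamine exchanger Slc1a5 r was 0.11 (permutation p = 0.492, adjusted p = 0.656) and rho 0.13 (permutation p = 0.426, adjusted p = 0.568). For Slc38a2 and Slc7a5 r was 0.07 (permutation p = 0.676, adjusted p = 0.676) and rho 0.09 (permutation p = 0.591, adjusted p = 0.591). Within single groups of 8 mice r was highest at 0.96 in HT and lowest at -0.60 in PBS for Slc7a6 and Slc3a2, and highest at 0.82 in 1wk and lowest at 0.03 in PBS for Slc7a5 and Slc3a2.

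**Figure D4:**
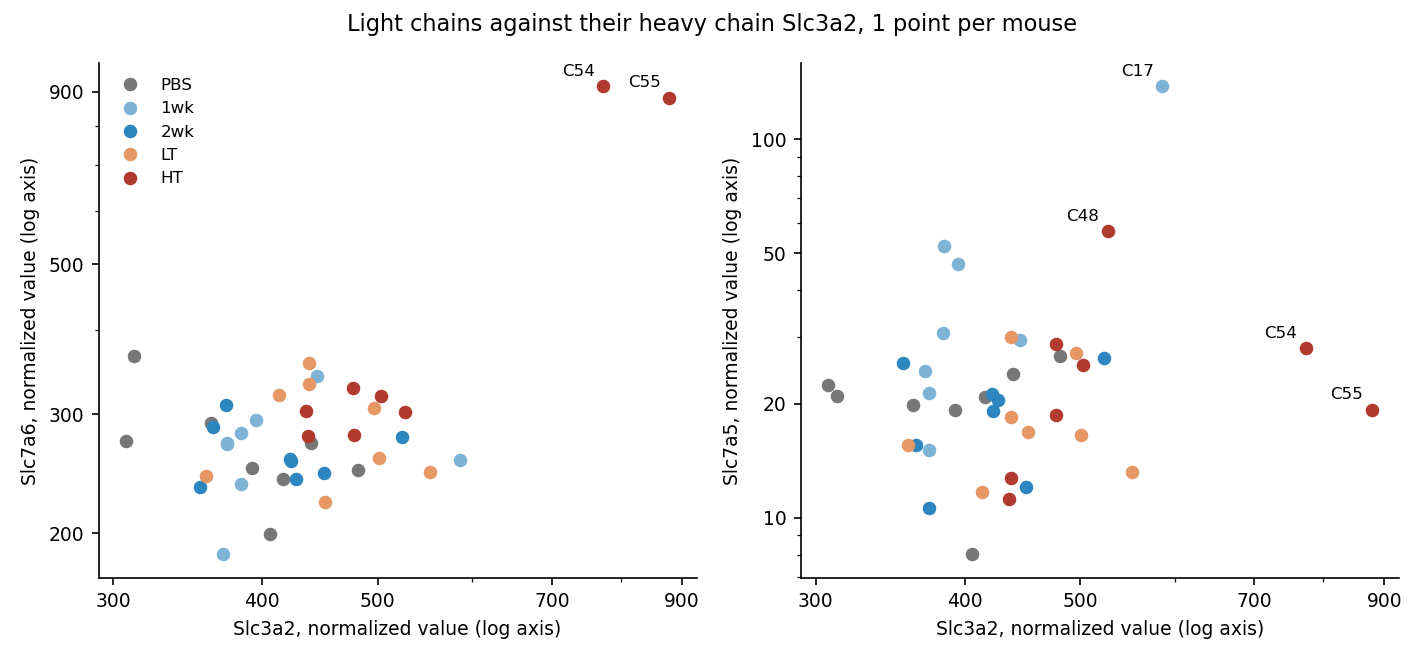
Slc7a6 (left panel) and Slc7a5 (right panel) against their heavy chain Slc3a2, with both axes as normalized values on log scales and 1 point per mouse coloured by group. In the left panel C54 and C55 lie alone at the upper right, with Slc7a6 at 916 and 881.

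The genes most like the 3 transporters with the largest called changes were sought by Pearson's r of log2 values over 40 mice, as a description. For Slc7a2 they were Klhl7 (0.79), Ubr2 (0.76) and B4galt1 (0.75), which had r of 0.67, 0.60 and 0.56 without C54 and C55. For Slc43a1 they were Klhl38 (0.75), Tom1l1 (0.74) and R3hdm1 (0.74), which had r of 0.73, 0.69 and 0.71 without C54 and C55. For Slc7a6 they were Dido1 (0.91), Mocos (0.90) and Zfp445 (0.89), and without C54 and C55 these fell to 0.59, 0.51 and 0.61. These r values include differences between groups and the mice share a depth within groups.

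Other amino acid transporters were read from a list of 41, of which 19 were in the table. In HT against PBS 4 rose and 3 fell, where 16.5% of all genes were called higher and 16.5% lower. The median log2 fold change of the 19 was 0.06. Slc38a3 (SNAT3), a sodium-coupled glutamine carrier, fell to 505 ± 267 in HT, against 1077 ± 295 in PBS muscle (SD, n = 8 each; log2 fold change -1.28, adjusted p = 0.000631). Slc15a4, a lysosomal carrier of histidine and peptides, rose to 396 ± 312 in HT, against 143 ± 12.98 in PBS muscle (log2 fold change 1.12, adjusted p = 0.000722). Slc36a4 (log2 fold change 0.54, adjusted p = 0.00462), a carrier of proline and tryptophan, and the glutamate carrier Slc1a1 (0.66, adjusted p = 0.00586) were also higher. Without C54 and C55 5 of the 19 were called, and in that setting 19.6% of all genes were called (2466 genes, against 4140 with all mice).

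Slc38a3 was likewise lower in HT than in LT muscle (505 ± 267 in HT, 1098 ± 389 in LT, log2 fold change -1.30, adjusted p = 0.00147). Slc38a7, a lysosomal glutamine carrier, was higher in HT than in LT muscle (0.59, adjusted p = 0.000322). Of the 19, 2 rose and 2 fell in HT against LT, where 20.4% of all genes were called. Without C54 and C55 3 were called in HT against LT, beside 7.25% of all genes. In LT, 1wk and 2wk muscle against PBS 0 of the 19 were called by limma, beside 0.636%, 0.525% and 0.0795% of all genes. There 2, 1 and 0 passed an unadjusted p of 0.05, beside 12.3%, 11.6% and 4.66% of all genes.

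**Figure D5:**
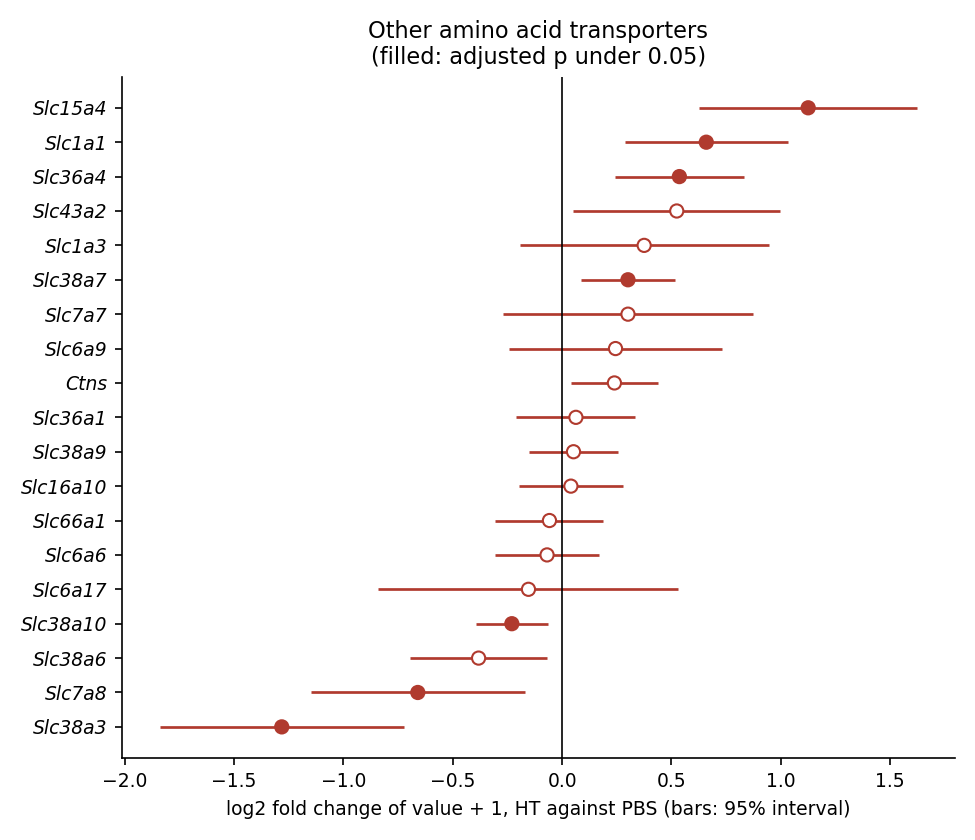
Log2 fold change of value + 1 in HT against PBS (horizontal axis) with 95% intervals for the 19 other amino acid transporters in the table (rows, sorted). Filled points passed an adjusted p of 0.05, with Slc38a3 lowest at -1.28 and Slc15a4 highest at 1.12.

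Genes that sense or handle amino acids inside the cell were read from 4 further lists. Of 40 measured genes of amino acid sensing by mTORC1, 8 rose and 11 fell in HT against PBS, with a median log2 fold change of -0.01. Over all genes 16.5% were called higher and 16.5% lower. The 4 of the 40 with the lowest adjusted p all fell, namely Kptn of the KICSTOR complex (-0.63, adjusted p = 0.000112), Lamtor4 of Ragulator (-0.40, adjusted p = 0.000153), the mTOR subunit Mlst8 (-0.46, adjusted p = 0.000194) and Wdr24 of GATOR2 (-0.50, adjusted p = 0.000299). Without C54 and C55 11 of the 40 were called, beside 19.6% of all genes.

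Of 25 measured genes around GCN2 and ATF4, the pathway that answers a lack of amino acids, 5 rose and 5 fell in HT against PBS. Over all genes 16.5% were called higher and 16.5% lower. Chac1, a glutathione-degrading enzyme and ATF4 target, rose (log2 fold change 1.49, adjusted p = 0.00111), whereas Psph of serine synthesis (-0.68, adjusted p = 0.00657), the factor Ddit3 (-0.58, adjusted p = 0.00845) and Pycr1 of proline synthesis (-0.65, adjusted p = 0.0131) fell. Without C54 and C55 5 of the 25 were called, beside 19.6% of all genes. In HT against LT 1 rose and 2 fell, where 20.4% of all genes were called. Without C54 and C55 0 of the 25 were called in HT against LT, beside 7.25% of all genes.

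Of 13 measured enzymes of glutamine, alanine and arginine, 1 rose and 3 fell in HT against PBS, where 16.5% of all genes were called higher and 16.5% lower. Without C54 and C55 3 of the 13 were called, beside 19.6% of all genes. The alanine transaminases Gpt (-0.94, adjusted p = 1.46e-05) and Gpt2 (-0.46, adjusted p = 0.00808) and glutamate dehydrogenase Glud1 (-0.19, adjusted p = 0.0237) fell, and Odc1 of polyamine synthesis rose (0.92, adjusted p = 0.00834). Of 10 genes that tag carriers for removal from the membrane, 4 rose and 0 fell, beside 16.5% of all genes called higher and 16.5% lower. Those that rose were the ubiquitin ligases Itch (0.37, adjusted p = 0.000824) and Nedd4l (0.45, adjusted p = 0.00142) and the adaptors Arrdc4 (0.69, adjusted p = 0.00579) and Arrdc3 (1.15, adjusted p = 0.00678). Of these 10, 4 were also called without C54 and C55, beside 19.6% of all genes.

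Markers of other cells moved in HT muscle as well. Over all genes 16.5% were called higher and 16.5% lower in HT against PBS. Of 20 endothelial markers 14 rose and 0 fell, with summed values of 13260 to 21130 in HT and 8663 to 13890 in PBS muscle. Of 18 macrophage markers 7 rose, of 6 neutrophil markers 6 rose, of 12 erythroid markers 8 rose and 3 fell, and of 15 fibroblast markers 3 fell. These are the markers present in the expression data, out of 20 macrophage, 16 neutrophil, 17 erythroid and 16 fibroblast markers listed. The others could not be assessed. Hbb-b2 and Hbb-bt had equal means in 2wk (830) and in PBS muscle (636.1), so the 12 erythroid markers are not independent of each other. The macrophage sum was 2566 to 6403 in HT and 1459 to 3451 in PBS muscle, and its lowest HT mouse was C54. The neutrophil sum was 709 to 2709 in HT and 30.8 to 65.7 in PBS muscle, with C55 highest, and the fibroblast sum 13670 to 29390 in HT and 19970 to 33920 in PBS muscle, with C54 lowest. Of 14 fibre markers 3 fell, with sums of 2021000 to 3114000 in HT and 2186000 to 3509000 in PBS muscle. Without C54 and C55 12 endothelial, 6 macrophage, 6 neutrophil, 9 erythroid, 1 fibroblast and 2 fibre markers were called, beside 19.6% of all genes. None of the table's values was 0, and the part of these cells in the transporter values was not tested.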

How the data were processed

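RNA of 40 gastrocnemius libraries, 8 per group, was read from 1 end for 50 bases from a stranded poly(A) kit. By the methods and the submitters' processing notes the authors aligned with STAR 2.7.8a in Partek (the notes list mm10 and mm39), kept genes of at least 30 reads and scaled by the DESeq2 median ratio. The deposited signal values are therefore estimated read counts divided by a size factor per library, and 98.5% of them were not whole. The authors' comparison columns (fold changes and p-values) and the male data were not used. Depth was estimated from the value of 1 read, 0.422 to 0.733 in 1wk, 2wk and PBS and 1.58 to 3.37 in LT and HT. Because only 78.0 to 89.4% of low values lay within 0.1 read of a whole number, no count test was run.

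log2(value + 1) of all 12573 genes was fitted with limma 3.58.1 (trend) in R 4.3.3, with 5 groups in 1 fit, no covariate and Benjamini-Hochberg adjustment. Fold changes are on that scale, which understates changes of low genes. P-values measure the spread between mice. Alternatives were pseudocounts of 0.5 and 5, a mean value of at least 20, equal sums, quantile normalization, library weights, only the 2 groups compared, thinning to 3.49 M reads and leaving out mice. The members and lists were chosen with earlier results of these data known. Named were all members, up to 4 called genes per list by adjusted p in HT against PBS (up to 2 in other comparisons) and the 3 genes most like each of 3 members. The fit was also run on simulated data with the same spread between mice in each group and no outlying mice. That setting differs from the HT mice, and no result given here rests on it. Python 3.11.15, numpy 2.4.6 and pandas 2.3.3 served for the relations, figures and sequences. Exon overlaps were taken from GENCODE vM39.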

Additional observations from a re-analysis of the deposited data

Results flagged for a closer look

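The 50 sets of 8 values, 1 per transporter and group, were compared with Dixon's 95% critical value for 8 values. In 8 sets the highest or lowest mouse lay further from its neighbour than this value allows. For normally distributed values chance gives about 1 in 20. The values were taken here without logarithm, so that rate need not hold for them. Mouse C17 was the highest 1wk mouse for Slc7a5 (138, next 52.2), Slc3a2 (586, next 445) and Slc38a1 (79.1, next 30.9). In HT muscle C54 was the highest for Slc7a2 (6950, next 3662) and C48 for Slc7a5 (57.2, next 28.7). In LT muscle C53 was the highest for Slc7a1 (62.9, next 40.8) and C42 for Slc1a5 (542, next 339). In PBS muscle C6 was the lowest for Slc7a5 (8.01, next 19.3). Slc7a6 was not among these sets in HT muscle, since C54 and C55 were high together.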

How the results depend on the processing

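The count of 5 called transporters in HT against PBS was also 5 with either pseudocount, the filter, equal sums, quantile normalization and thinning. It was 3 with a weight for each library, 3 with only the 2 groups in the fit, 2 without C48, C54 and C55, 3 without C54 and C55 (a setting added once values were known), and 4 to 5 with single mice left out. Over all genes 4140 were called with all mice and groups in the fit and 2447 with only the 2 groups. Without C54 and C55 2466 of all genes were called, and without C48 as well 2028. With only the 2 groups, Slc7a2 (adjusted p = 0.063) and Slc7a6 (adjusted p = 0.0972) were lost. With a weight for each library Slc7a6 (adjusted p = 0.0731) and Slc38a4 were lost. The count was 1 in HT against LT with equal sums and 0 to 2 with single mice left out, 2 in 1wk with a weight for each library, and 1 in 2wk with a weight for each library or with only the 2 groups. In LT against PBS and 2wk against 1wk it was 0 in all settings run. With single mice left out, 3216 to 4483 of all genes were called in HT against PBS and 1486 to 3158 in HT against LT. With a weight for each library 729 of all genes were called in 1wk and 242 in 2wk, against 66 and 10 without weights. The cause of these changes was not tested.

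Uncalled log2 fold changes that changed sign were, in HT against PBS, Slc7a5 (-0.087 without C48, C54 and C55), Slc7a1 (-0.017 without C54 and C55) and Slc1a5 (-0.036 to 0.133 with single mice left out). In HT against LT they were Slc7a1 (0 with a weight for each library and -0.041 without C54 and C55), Slc1a5 (0.011 with equal sums, 0.002 with a weight for each library, 0.091 without C48, C54 and C55 and 0.045 without C54 and C55) and Slc38a1 (0.078 when thinned). With single mice left out the ranges in HT against LT were -0.124 to 0.060 for Slc1a5, -0.266 to 0.028 for Slc38a1 and -0.224 to 0.027 for Slc38a2.

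For Slc7a6 and Slc3a2 r was -0.135 without C54 and C55, -0.137 without C48 as well, 0.96 within HT (exact permutation, adjusted p = 0.0419), -0.12 within LT, -0.076 within 2wk and -0.60 within PBS. For Slc7a5 and Slc1a5 r was -0.33 within HT and -0.21 within PBS, and for Slc38a2 and Slc7a5 -0.047 within 1wk and -0.29 within 2wk.

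Counts of called list genes in HT against PBS ran, over the settings other than single mice left out, from 3 to 7 for other transporters, 9 to 19 for mTORC1 sensing, 4 to 10 for GCN2 and ATF4, 2 to 5 for the enzymes and 4 to 5 for carrier removal. In HT against LT they ran from 1 to 5, 0 to 10, 0 to 3, 1 to 5 and 0 to 3 in the same order. Over all genes the count was 2028 to 4176 in HT against PBS and 360 to 2572 in HT against LT. No paired analysis was possible because no mouse number occurs in more than 1 group. In LT and HT libraries Slc38a1, Slc7a5 and Slc7a1 rested on at most 36 reads each.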
